A study of Mus musculus with 9 samples.

Results

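In the mouse embryonic fibroblast (MEF) clone lacking Suv39h1 and Suv39h2, 69 genes with next to no reads in wild-type cells were expressed in every culture. These genes were selected on their raw counts, from a table of 47937 genes. Each had 5 or fewer counts in each WT library and a level of at least 0.5 CPM (raw counts scaled to the library total) in each S1S2 library, at any level in G9Gl cells. Of the 31184 genes at 5 or fewer counts in every WT library, 79 met the S1S2 limit. The 10 whose symbols begin with Oas, Ifit, Slfn, Prl, Akr1, Zfp, Pcdh, Hox or Col, large families with many related members, were left out. The 69 that remain were 0.223% of the 30995 WT-silent genes outside those families. Because the WT and S1S2 counts chose the genes, the difference between these genotypes is given as a description without a test.

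The series holds 9 RNA sequencing libraries, 3 per genotype. WT cells are a MEF clone, E1c, with a conditional allele of Eset1 (Setdb1) that all 3 genotypes carry. The study used CRISPR/Cas9 on E1c to disrupt Suv39h1 and Suv39h2 in S1S2 cells (clone B1), and G9a (Ehmt2) and Glp (Ehmt1) in G9Gl cells (clone H7). Each mutant genotype is thus 1 clone, chosen for missing protein on western blots, and the effects of genotype and of clone cannot be told apart. According to the methods, a tamoxifen-inducible Cre with puromycin resistance was put back into mutant lines for Eset1 deletion, and whether the cultures sequenced here carried it was not given in the sources used here. The methods describe the 3 cultures of a genotype as biological replicates without saying how they were separated, so p-values measure the spread between cultures of 1 clone.

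Methylation of histone H3 at lysine 9 marks silent chromatin in its di- and trimethylated forms. The Suv39h enzymes deposit its trimethylated form mainly at pericentric satellites and at repeats, while the G9a and Glp complex deposits the mono- and dimethylated forms across gene-containing regions. Genes kept off in fibroblasts include many that serve germ cells, epithelia, neurons or an antiviral response.

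The stretches upstream of the transcription start are shown for the 7 genes with the highest S1S2 level and for Sp100, the gene with the highest G9Gl level, among the 28 whose start lies within 50 bases of one another in RefSeq and GENCODE. They let a reader see how different the start regions of these genes are. Each line gives the 250 bases before the RefSeq start in the GRCm38.p6 build, read 5′ to 3′ on the strand of the gene, with every CpG dinucleotide in capitals.
Dpep1, chr8:123185985-123186234, plus strand: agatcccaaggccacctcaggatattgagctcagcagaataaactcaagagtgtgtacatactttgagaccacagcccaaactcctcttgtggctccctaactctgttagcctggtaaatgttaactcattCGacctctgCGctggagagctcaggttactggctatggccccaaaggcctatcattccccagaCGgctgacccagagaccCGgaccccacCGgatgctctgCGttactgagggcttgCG
Adam22, chr5:8368161-8368410, minus strand: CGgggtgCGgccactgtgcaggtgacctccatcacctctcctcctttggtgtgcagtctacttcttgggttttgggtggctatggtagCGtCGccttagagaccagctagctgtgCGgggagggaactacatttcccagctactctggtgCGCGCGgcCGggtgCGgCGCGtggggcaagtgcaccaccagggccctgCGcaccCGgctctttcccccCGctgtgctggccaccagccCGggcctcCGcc
Tgfa, chr6:86194972-86195221, plus strand: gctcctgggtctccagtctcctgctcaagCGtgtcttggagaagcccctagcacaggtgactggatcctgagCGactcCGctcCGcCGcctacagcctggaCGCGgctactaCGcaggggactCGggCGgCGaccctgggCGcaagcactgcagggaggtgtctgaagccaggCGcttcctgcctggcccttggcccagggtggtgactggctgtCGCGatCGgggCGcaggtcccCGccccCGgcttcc
Tdrd9, chr12:111971309-111971558, plus strand: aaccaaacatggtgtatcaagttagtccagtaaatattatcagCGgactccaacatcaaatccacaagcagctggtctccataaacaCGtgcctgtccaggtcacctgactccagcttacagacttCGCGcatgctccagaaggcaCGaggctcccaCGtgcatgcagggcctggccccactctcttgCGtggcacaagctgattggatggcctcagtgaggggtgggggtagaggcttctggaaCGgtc
Hspb8, chr5:116422865-116423114, minus strand: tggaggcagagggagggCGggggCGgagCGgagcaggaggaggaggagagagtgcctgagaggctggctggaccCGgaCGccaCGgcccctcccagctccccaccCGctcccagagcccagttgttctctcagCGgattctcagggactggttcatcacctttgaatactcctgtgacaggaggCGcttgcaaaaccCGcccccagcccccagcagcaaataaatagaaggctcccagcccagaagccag
Nrcam, chr12:44328635-44328884, plus strand: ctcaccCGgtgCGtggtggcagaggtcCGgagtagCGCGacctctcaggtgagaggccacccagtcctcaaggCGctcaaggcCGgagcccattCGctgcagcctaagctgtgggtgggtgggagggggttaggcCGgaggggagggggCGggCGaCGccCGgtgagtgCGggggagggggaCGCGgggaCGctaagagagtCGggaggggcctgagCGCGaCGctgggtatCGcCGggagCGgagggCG
Gsta1, chr9:78230419-78230668, plus strand: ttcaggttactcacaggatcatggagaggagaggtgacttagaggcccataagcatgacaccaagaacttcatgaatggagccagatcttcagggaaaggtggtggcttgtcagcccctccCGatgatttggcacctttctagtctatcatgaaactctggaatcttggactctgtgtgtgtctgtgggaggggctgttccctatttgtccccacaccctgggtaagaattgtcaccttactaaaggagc
Sp100, chr1:85649738-85649987, plus strand: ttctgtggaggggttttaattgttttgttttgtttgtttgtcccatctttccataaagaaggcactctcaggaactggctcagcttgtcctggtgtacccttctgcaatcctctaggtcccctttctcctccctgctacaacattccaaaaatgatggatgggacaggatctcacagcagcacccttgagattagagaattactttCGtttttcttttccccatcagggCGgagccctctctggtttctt

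The start regions ranged from CpG-poor to CpG-rich. Gsta1 had 1 CpG and Sp100 had 2, whereas Adam22 had 17, Tgfa 19 and Nrcam 25. Dpep1 had 7, Tdrd9 8 and Hspb8 10. Over all 32851 RefSeq mouse promoters the median of the same window was 6 CpG, with quartiles of 2 and 16. The 6 motifs below were searched on both strands. The Tdrd9 stretch held the E-box CACGTG at 2 places, a motif that 6.02% of all promoters hold. The GC box GGGCGG occurred at 3 places before Hspb8, at 2 before Tgfa and at 1 each before Nrcam and Sp100, and 32.7% of all promoters hold it. GCGTG, the core of the xenobiotic response element, occurred before Adam22, Nrcam, Tdrd9 and Tgfa, against 28.2% of all promoters, and none of the motifs contains another. TATAAA (12.4% of all promoters), TGANTCA of AP-1 (6.75%) and GAANNTTC of heat shock factors (6.69%) were not in these 8 windows. A check of promoter composition over all 69 genes is void, because only 41 of them (59.4%) had a promoter sequence in the table.

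Libraries held between 30177597 and 32157623 counts for WT, 21319778 and 27588548 for S1S2, and 28412155 and 30808254 for G9Gl. At these depths 3 counts, taken as the detection floor, correspond to between 0.0933 and 0.141 CPM, and the S1S2 limit of 0.5 CPM to between 10.7 and 13.8 counts. Intervals and floors cover counting error only. All 10 fibroblast markers examined were above the floor in every genotype, but their levels differed. Mean Col3a1 was 1546 CPM in WT, 189 in S1S2 and 838 in G9Gl, and mean Vim 1475, 2384 and 1240 CPM. Dcn was low in all, at 7.31, 2.16 and 0.196 CPM. The summed level of the markers was 10148 to 11350 CPM in WT, 7328 to 7431 in S1S2 and 7817 to 8485 in G9Gl. The targeted genes are frameshift mutants, so their transcripts need not vanish. Suv39h1 was at 109 ± 3.90 CPM in WT and 41.6 ± 3.02 in S1S2 (SD, n = 3), Suv39h2 at 34.4 ± 0.929 and 54.9 ± 2.12. In G9Gl, Ehmt1 was at 49.8 ± 1.87 CPM against 104.8 ± 1.20 in WT, and Ehmt2 at 53.8 ± 3.20 against 126 ± 8.04.

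The 69 genes together gave 103, 107 and 112 counts in the 3 WT libraries, against 3514, 4235 and 3403 in S1S2 and 1548, 1428 and 1610 in G9Gl. As a share of the library these sums are 3.20 to 3.71 CPM in WT, 154 to 160 in S1S2 and 50.3 to 54.5 in G9Gl. The gap between WT and S1S2 in this sum was fixed by the choice of genes. In bulk cultures a small fraction of cells with much RNA and many cells with little cannot be told apart. In WT, 8 of the 69 genes had no count in any library and 21 had at most 1 count in each, and the median gene had 4 counts over the 3 libraries.

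**Figure D1:**
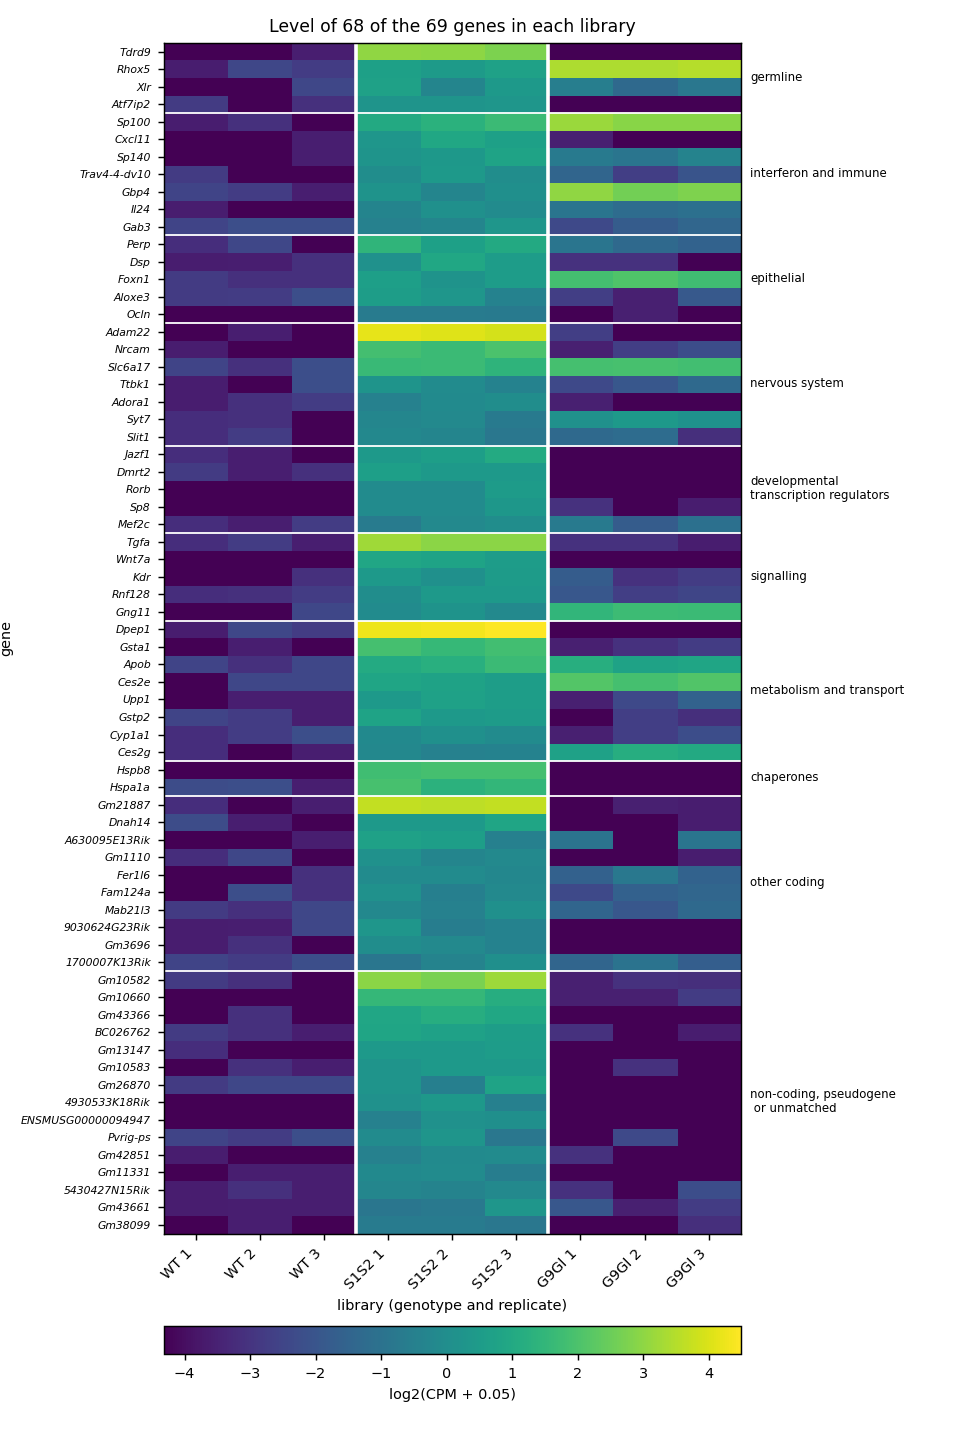
Level of 68 of the 69 genes (rows, grouped by role) in each of the 9 libraries (columns), colored as log2(CPM + 0.05). WT columns are dark throughout by the choice of genes, S1S2 columns are lit throughout, and in G9Gl most rows are dark while Rhox5, Sp100, Gbp4, Ces2e and Foxn1 are brighter than in S1S2.

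Most of the genes were expressed at a low level in S1S2. Their mean level ranged from 0.562 to 20.5 CPM, with a median of 1.16 CPM. A mean below 1 CPM was found for 28, at least 2 CPM for 15, at least 5 CPM for 6 and at least 10 CPM for 3, which were Dpep1, Adam22 and Gm21887. Per kilobase of the longest annotated transcript, the median was 0.562 CPM per kb over the 68 genes with a length. The median over all 13349 genes at 0.5 CPM or more in every S1S2 library was 8.40 CPM per kb, and 3 of the 68 lay above it. By this measure Gm21887 at 23.7, the pseudogene Gm10582 at 19.7 and Dpep1 at 9.18 CPM per kb came first, followed by Pvrig-ps at 4.22, Gsta1 at 3.84, Gm10583 at 3.13, Trav4-4-dv10 at 2.95, Gm11331 at 2.75, Gm10660 at 2.20, Rhox5 at 1.98, Hspb8 at 1.97 and Tgfa at 1.83. The genes that stood out per length were thus partly short transcripts.

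**Figure D2:**
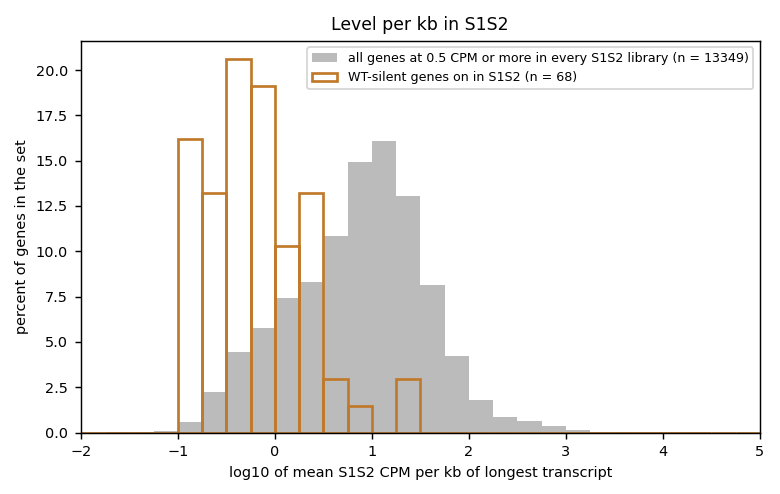
Distribution of the mean S1S2 level per kb of the longest transcript (log10 of CPM per kb, x axis) as a percent of the genes in each set (y axis). The 68 WT-silent genes with a length (outlined bars) center near 0.562 CPM per kb, below the 13349 genes on in S1S2 (gray bars) with a median of 8.40.

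The median coefficient of variation over the S1S2 libraries was 16.4%, a spread that the rule limits, because each library had to reach the minimum. The 5 most variable genes were Gm43661 at 50.9%, Gm26870 at 44.7%, A630095E13Rik at 41.1%, Pvrig-ps at 37.7% and 9030624G23Rik at 36.6%. The highest of the 3 libraries was replicate 1 for 28 genes, replicate 2 for 17 and replicate 3 for 24. At the edge of the S1S2 limit, Gm43661 and 1700007K13Rik had a lowest library of 0.5004 CPM and Slit1 of 0.516, while Larp6 at 0.471 and Cd300lb and Rnf183 at 0.469 CPM fell just outside. At the WT limit, 10 genes had a library with 5 counts, among them Aloxe3, Cyp1a1 and Dnah14. Genes left out by a WT library with 6 counts included Gm14139, Krt8 and Gm8493, whose lowest S1S2 libraries were at 6.10, 4.10 and 2.35 CPM.

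Protein-coding genes made up 52 of the 69 (75.4%), against 29.0% of all WT-silent genes. The others were 6 lincRNA genes, 2 genes of the TEC class, which await experimental evidence, 1 antisense transcript, 6 pseudogenes of several classes, 1 T-cell receptor segment and 1 Ensembl gene, ENSMUSG00000094947, that had no match in GENCODE M21. The genes lay on 19 chromosomes. Chromosome 5 held 10 (14.5% of the set, against 6.39% of WT-silent genes) and chromosome X 6 (8.70% against 6.76%). Chromosomes 1, 9, 12 and 19 held 5 each (7.25%), against 7.23%, 3.92%, 3.20% and 1.76% of WT-silent genes. On chromosome 19 the tested genes as a whole had a median S1S2 against WT log2 fold change of 0.34, where the medians of the other chromosomes lay between -0.15 and 0.15. Its part in the count for chromosome 19 was not tested. No gene of the set was next to another in the gene order of the table. The closest were Gm10583 and Gm10582, 2531 bases apart on chromosome 4, Sp140 and Sp100, 4951 bases apart on chromosome 1, and Ces2e and Ces2g, 27046 bases apart on chromosome 8, with 1 or 2 other genes starting between them. These 3 pairs were picked out after their values were seen.

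G9Gl cells were not used by the rule and show the same genes in a mutant of the other enzyme pair. Of the 69, 17 had no count in any G9Gl library and 39 had 5 or fewer counts in each. At the other end, 11 reached 0.5 CPM in every G9Gl library (15.9%), where 0.668% of the 30995 WT-silent genes did. The remaining 19 lay between. All 69 passed the filter on low counts, through the S1S2 libraries that chose them, and were tested with edgeR's quasi-likelihood test over 15540 genes, calling a change of 2-fold or more with an adjusted p no higher than 0.01. Against WT, 18 genes (26.1%) were called higher in G9Gl, where 6.77% of all genes tested were. This comparison uses the WT libraries that the rule had required to be low, so the higher calls are in the direction that the choice favors. The median fitted log2 fold change over the 69 was 0.86, beside -0.0067 over all genes tested. Most genes tested are expressed in WT, so the values over all genes are not a matched background. Of the 1052 genes called higher among all 15540, 753 were among the 15145 with more than 5 counts in a WT library. Tested WT-silent genes were thus called higher far more often than 6.77%, and the 26.1% is not read as an excess.

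In the edgeR fit with the filter and no block, 0 genes of the set were called lower in G9Gl than in WT, while 6 were lower at an unadjusted p under 0.05. The edgeR fit called 3 without the filter and 2 when blocked on replicate number, and DESeq2 called 2. The near misses were Hspa1a, Dpep1 and Gm26870. Dpep1 had 1, 4 and 3 counts in WT and none in G9Gl, with a fitted log2 fold change of -4.33 and an adjusted p of 0.011.

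Against S1S2, 52 of the 69 (75.4%) were called lower in G9Gl, where 5.08% of all genes tested were, and 7 (10.1%) were called higher, where 7.97% were. This comparison uses the S1S2 libraries that the rule had required to be high, so the lower calls are in the direction that the choice favors, and nothing is read from them for single genes or groups. Ratios of S1S2 to G9Gl given for single genes describe the levels, with intervals that cover counting alone. The higher calls are in the opposite direction, at a share near that of all genes. By library, 58 genes had all G9Gl libraries below all S1S2 libraries, 9 had all above, and 2 overlapped. Over all genes tested the shares were 30.5% below and 29.9% above. The 10 genes called neither way included 1700007K13Rik, Apob, Fer1l6, Il24, Mef2c, Slc6a17, Slit1, Syt7 and Xlr.

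**Figure D3:**
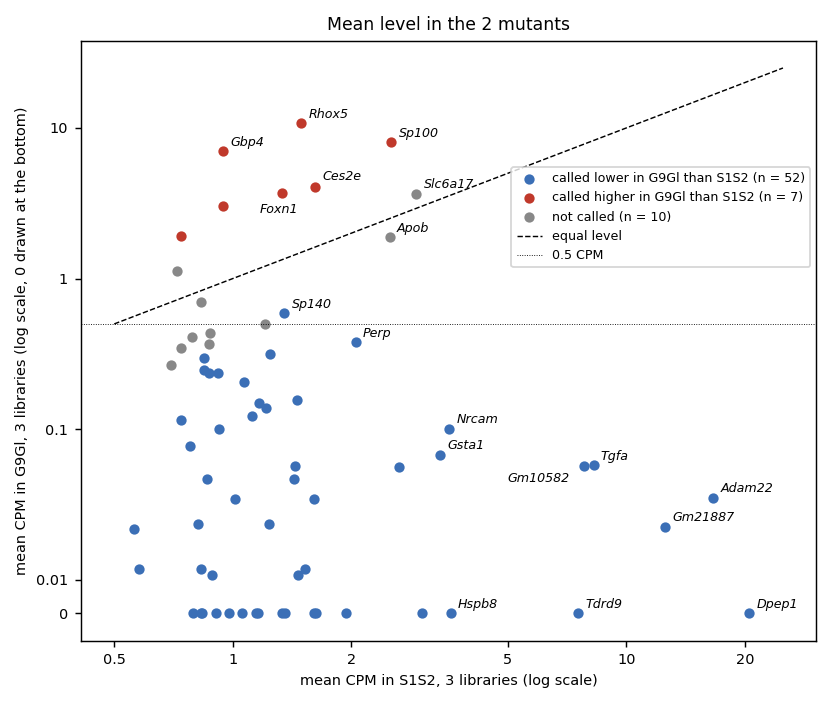
Mean level in S1S2 (x axis, CPM, log scale) against mean level in G9Gl (y axis, CPM, log scale, with 0 drawn at the bottom) for the 69 genes, colored by the call between the mutants. The genes highest in S1S2, from Dpep1 at 20.5 CPM to Hspb8 at 3.58 CPM, sit at or near the bottom, and the 7 genes called higher in G9Gl lie above the line of equal level.

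Genes of the germline included Tdrd9, Rhox5, Xlr and Atf7ip2. Tdrd9 encodes a helicase of the piRNA pathway that silences transposons in male germ cells. It had 0, 0 and 1 counts in WT, stood at 8.05, 7.97 and 6.61 CPM in the S1S2 libraries and had no count in G9Gl, at least 222-fold lower than in S1S2. All S1S2 libraries were high and all others at or near 0. Rhox5, a homeobox gene of the X-linked reproductive cluster, had 1, 4 and 3 counts in WT, 1.55, 1.34 and 1.59 CPM in S1S2 and 10.6, 10.5 and 11.2 CPM in G9Gl. The mutant groups did not overlap, and G9Gl was higher by 2.86 on the log2 scale (SE 0.08, adjusted p = 2.66e-11). Xlr, an X-linked gene of lymphocytes and meiotic cells, was at 1.59, 0.761 and 1.27 CPM in S1S2 and at 0.633, 0.352 and 0.519 in G9Gl. It had 0, 0 and 4 counts in WT. Atf7ip2, a relative of the Setdb1 partner Atf7ip, was at 1.14, 1.12 and 1.17 CPM in S1S2 with 0 counts in G9Gl. Among the 4 germ cell markers Ddx4, Dazl, Sycp3 and Mael, all were at 3 or fewer counts in every S1S2 library.

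Immune and interferon-related genes made up 7 of the set, and some were higher in G9Gl than in S1S2. Sp100 and Sp140 are neighbors that encode chromatin proteins of nuclear bodies induced by interferon. Sp100 had 1, 2 and 0 counts in WT, 2.00, 2.39 and 3.19 CPM in S1S2 and 9.01, 7.53 and 7.498 CPM in G9Gl. The G9Gl level exceeded that of S1S2 by 1.67 on the log2 scale (SE 0.20, adjusted p = 2.22e-07). Gbp4, an interferon-induced GTPase, was at 1.09, 0.761 and 0.985 CPM in S1S2 and at 8.02, 6.09 and 6.88 CPM in G9Gl, a difference of 2.90 (SE 0.18, adjusted p = 8.46e-10). In both genes every G9Gl library exceeded every S1S2 library. Sp140 was at 1.14, 1.23 and 1.69 CPM in S1S2 and 0.563, 0.493 and 0.714 in G9Gl. Cxcl11, a chemokine gene annotated as a polymorphic pseudogene, stood at 1.18, 1.85 and 1.55 CPM in S1S2 and had a single count over the G9Gl libraries. Il24, a cytokine of the interleukin-ten family, was at 0.728, 1.01 and 0.891 CPM in S1S2 and 0.492, 0.387 and 0.422 in G9Gl. Gab3, a signaling adaptor of macrophages, was at means of 0.872 CPM in S1S2 and 0.237 in G9Gl, and Trav4-4-dv10, a variable segment of the T-cell receptor, at 1.07 and 0.206 CPM. Of 5 haematopoietic markers, Ptprc, Itgam and Adgre1 had no count in S1S2 and Csf1r had at most 1 count in a library, while Cd68 was at 4.42 CPM in WT and 3.51 in S1S2. In G9Gl, Ptprc averaged 0.0902 CPM, Csf1r 0.239 and Cd68 4.37.

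Epithelial genes formed a group of 5. Perp, a component of desmosomal junctions and a target of p53, was at 2.64, 1.56 and 1.97 CPM in S1S2 and at 0.492, 0.352 and 0.292 CPM in G9Gl. It had 2, 4 and 0 counts in WT. Dsp, which encodes desmoplakin, had 1.05, 1.85 and 1.41 CPM in S1S2 and at most 2 counts in a G9Gl library. Ocln, a tight junction protein, was low at 0.591, 0.580 and 0.563 CPM in S1S2, had no count in WT, and was close in the 3 cultures. Aloxe3, a lipoxygenase of the epidermal barrier, varied from 0.704 to 1.46 CPM in S1S2. Foxn1, the transcription factor of thymic epithelium and hair follicles, was at 1.501, 1.09 and 1.41 CPM in S1S2 and 3.55, 4.15 and 3.41 CPM in G9Gl, higher by 1.49 (SE 0.16, adjusted p = 4.39e-06). The 6 epithelial markers examined summed to 2.52 to 3.30 CPM in WT, 24.4 to 27.9 in S1S2 and 9.99 to 15.4 in G9Gl. In S1S2 this sum was mostly Krt19 at a mean of 20.8 CPM and Krt8 at 4.65, with Cdh1 and Cldn7 at or under 1 count in each library and Epcam at 2 to 6 counts. Their part in the levels of the epithelial genes was not tested.

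Genes of the nervous system numbered 7. Adam22, a catalytically inactive surface protein that binds Lgi1 at synapses, had 0, 1 and 0 counts in WT and 17.9, 16.7 and 15.2 CPM in S1S2. In G9Gl it had 3, 0 and 0 counts, and the S1S2 level was 486 times that of G9Gl (95% counting interval 166 to 2360). Nrcam, a neuronal cell adhesion molecule, was at 3.55, 3.15 and 3.94 CPM in S1S2 and had 1, 3 and 5 counts in G9Gl, and the S1S2 level was 34.2 times that of G9Gl (17.7 to 75.7). Slc6a17, a transporter of amino acids into synaptic vesicles, behaved differently, at 3.05, 3.15 and 2.58 CPM in S1S2 and 3.69, 3.77 and 3.51 CPM in G9Gl. Its G9Gl libraries all lay above its S1S2 libraries, but the difference of 0.32 on the log2 scale (SE 0.10) was not called (adjusted p = 0.11). Syt7, a calcium sensor of vesicle fusion, had 0.773, 0.834 and 0.563 CPM in S1S2 and 1.06, 1.27 and 1.07 in G9Gl, a difference of 0.63 (SE 0.18, adjusted p = 0.086). Adora1, an adenosine receptor, Ttbk1, a kinase of tau, and the axon guidance gene Slit1 were at means of 0.830, 0.916 and 0.699 CPM in S1S2. Of 4 neuron markers, Rbfox3, Snap25 and Stmn2 had no count in S1S2, and Tubb3 was at 25.2 CPM in WT and 38.9 in S1S2. In G9Gl, Stmn2 was at a mean of 2.53 CPM, Snap25 at 0.519 and Tubb3 at 21.5 CPM, against 0.0538 CPM for Stmn2 and no count for Snap25 in WT. Their part in the levels of Slc6a17 and Syt7 was not tested.

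**Figure D4:**
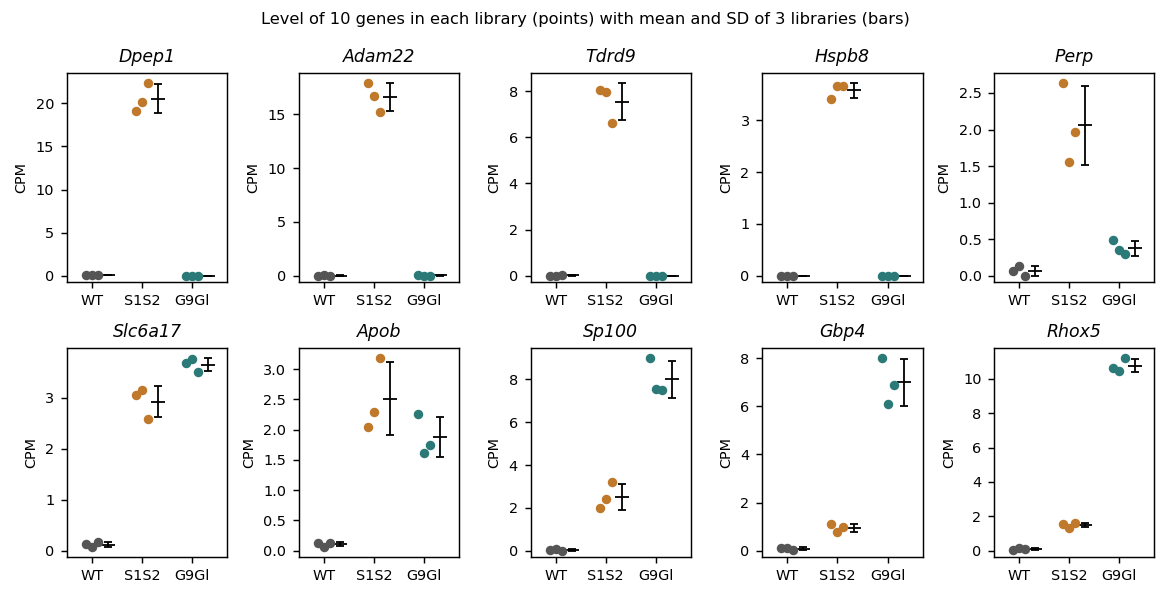
CPM (y axis, from 0) of 10 genes in each of the 3 libraries of WT, S1S2 and G9Gl (points), with the mean and SD of 3 libraries beside them (bars). Dpep1, Adam22, Tdrd9 and Hspb8 are high only in S1S2 among these genotypes, Perp is intermediate in G9Gl, Slc6a17 and Apob are on in both mutants, and Sp100, Gbp4 and Rhox5 are highest in G9Gl.

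Transcription regulators of development numbered 5. Rorb, an orphan nuclear receptor of retina and cortex, and Sp8, a zinc finger factor of limb buds and forebrain, had no count in WT. Rorb stood at 0.910, 0.906 and 1.36 CPM in S1S2, at least 32.2-fold the WT level, and had no count in G9Gl. Sp8 was at 0.910, 0.906 and 1.22 CPM in S1S2 and at 2, 0 and 1 counts in G9Gl. Dmrt2, a factor of somite patterning, and Jazf1, a zinc finger cofactor, were at means of 1.36 and 1.61 CPM in S1S2 and had no count in G9Gl. Mef2c, which acts in muscle, neurons and lymphocytes, was at 0.591, 0.834 and 0.938 CPM in S1S2 and 0.563, 0.246 and 0.422 in G9Gl. It had 2, 1 and 3 counts in WT.

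Signaling genes included 3 that act at the cell surface. Tgfa, a ligand of the epidermal growth factor receptor, had 2, 3 and 1 counts in WT, 9.28, 7.72 and 7.79 CPM in S1S2 and 2, 2 and 1 counts in G9Gl. The S1S2 level was 144 times that of G9Gl (61.4 to 446). Wnt7a, a secreted Wnt ligand, had no count in WT or G9Gl and stood at 1.82, 1.67 and 1.41 CPM in S1S2, at least 50.5-fold the WT level. Kdr, the main receptor for vascular endothelial growth factor, was at 1.27, 1.01 and 1.36 CPM in S1S2 and 0.246, 0.0704 and 0.0974 in G9Gl. Of the other endothelial markers, Pecam1 was at a mean of 0.130 CPM in WT and 0.322 in S1S2, and Cdh5 had no count in WT and 2, 3 and 1 counts in S1S2. Tek had at most 1 count in a WT or S1S2 library, and in G9Gl Cdh5 averaged 1.004 CPM and Tek 0.297 CPM. Their part in the Kdr level was not tested. Rnf128, a ubiquitin ligase of T cells, was at means of 1.16 CPM in S1S2 and 0.149 in G9Gl. Gng11, a gamma subunit of heterotrimeric G proteins, was higher in G9Gl, with 0.910, 1.09 and 0.844 CPM in S1S2 and 2.74, 3.27 and 3.15 in G9Gl (log2 difference 1.68, SE 0.13, adjusted p = 4.04e-05).

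Metabolic enzymes and transporters made up 9 of the set and held the gene with the highest S1S2 level in CPM, though not per kb. Dpep1 (chromosome 8, 123186242 to 123201812, plus strand), a membrane dipeptidase of kidney tubules, was at 19.06, 20.1 and 22.4 CPM in S1S2 and had no count in G9Gl, at least 598-fold lower. Among the detoxifying enzymes, Gsta1 was at 3.64, 2.94 and 3.52 CPM in S1S2 with 1, 2 and 3 counts in G9Gl, Gstp2 at a mean of 1.44 CPM and Cyp1a1 at 0.923 CPM. The G9Gl means of Gstp2 and Cyp1a1 were 0.0568 and 0.101 CPM. Upp1, the uridine phosphorylase, was at 1.46 CPM in S1S2 and 0.156 in G9Gl. The carboxylesterase genes Ces2e and Ces2g were called higher in G9Gl than in S1S2. Ces2e was at 1.77, 1.63 and 1.45 CPM in S1S2 and 4.29, 3.66 and 4.22 CPM in G9Gl (log2 difference 1.32, SE 0.10, adjusted p = 4.37e-05). Ces2g was at 0.819, 0.689 and 0.704 CPM in S1S2 and 1.58, 2.22 and 1.98 in G9Gl (1.39, SE 0.16, adjusted p = 0.00027). Both Ces2 genes had every G9Gl library above every S1S2 library. Apob, the main protein of low-density lipoprotein, was on in both mutants at 2.05, 2.28 and 3.19 CPM in S1S2 and 2.25, 1.62 and 1.75 in G9Gl, and its groups overlapped.

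The pair of chaperone genes was detected in S1S2 and had no count in G9Gl. Hspb8, a small heat shock protein that works with Bag3, had no count in the WT or G9Gl libraries and was at 3.41, 3.66 and 3.66 CPM in S1S2, at least 111-fold the WT level. Hspa1a, the inducible Hsp70, was at 3.78, 2.501 and 2.81 CPM in S1S2 and had 5, 5 and 1 counts in WT. Its near-identical copy Hspa1b was counted in all genotypes, at 5.90 CPM in WT, 7.76 in S1S2 and 1.94 in G9Gl.

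The other 10 coding genes included Gm21887 on chromosome X, at 12.8, 12.1 and 12.8 CPM in S1S2, with 2, 0 and 1 counts in WT and 0, 1 and 1 in G9Gl. The remainder were below 2 CPM in S1S2, from Dnah14, a dynein heavy chain of cilia, at 1.47 CPM to 1700007K13Rik at 0.737 CPM. None of the 15 non-coding, pseudogene or unmatched genes exceeded 0.115 CPM in the mean of G9Gl. Gm10582 was highest with 7.73, 6.45 and 9.19 CPM in S1S2, then the lincRNA Gm10660 with 2.87, 2.86 and 2.20 CPM and no count in WT.

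Several of the genes have close copies, so the origin of their reads is uncertain. How multiply aligned reads were divided among gene copies was not given in the sources used here. Each gene's annotated transcripts were cut into all stretches of 75 bases, the read length, and looked up in the transcripts of all other genes. Of 68 genes with transcripts, 33 shared no stretch and 14 shared 20% or more. Those were Gm10582 (92.5%), Gsta1 (84.7%), Gm3696 (80.0%), Gm42851 (74.9%), Gm10583 (72.0%), Hspa1a (61.7%), Gm26870 (60.4%), Gm21887 (57.1%), Gstp2 (50.1%), Sp140 (46.3%), Cxcl11 (39.8%), Trav4-4-dv10 (34.8%), Gm13147 (34.1%) and Gm11331 (27.6%). For Gm42851, Gm26870 and Cxcl11 the shared stretches were antisense alone. The methods name a stranded library kit, but whether strand was used in counting was not given in the sources used here. Gm47283, which holds the shared stretches of Gm21887, was at 13.6 CPM in WT, 15.2 in S1S2 and 9.80 in G9Gl, and Gstp1, the copy of Gstp2, at 81.9, 102 and 66.4 CPM. Dpep1, Adam22 and Tdrd9 shared none and Tgfa 0.693%, and these 4 are the genes at a mean of 5 CPM or more in S1S2 that shared under 20%. Of the 68 genes with a position, 29 overlap another gene of the table, but for only 4 does that gene reach 0.5 CPM in a genotype, namely Lbr for Dnah14, Bicc1 for 4930533K18Rik, Gm26624 for Gm13147 and Gbp9 for Gbp4.

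Genes next to the WT-silent genes were tested in the same fit. None of them is in the set, but 1, Zfp988, met the count limits and was left out by its symbol. The nearest tested gene on each side, outside the set, gave 129 genes around 68 positions, at a median distance of 89861 bases where they did not overlap. Of these, 17 (13.2%) were called higher in S1S2 than in WT, where 4.66% of all genes tested were, and 5 (3.88%) were called lower, where 4.34% were. The median log2 fold change of the neighbors was 0.14 and that of all genes tested -0.0032, and 60.5% of neighbors against 49.3% of all genes lay above 0. Leaving out neighbors that overlap a gene of the set, an alternative chosen after seeing the data, left 15 called higher and 5 lower of 124. Of the 129, 12 had 5 or fewer counts in every WT library, so they could pass the filter only through a mutant, and 6 of them were among the 17. Without these 12, also chosen after seeing the data, 11 of 117 (9.40%) were called higher and 5 (4.27%) lower, where 3.79% and 4.44% of the 15145 tested genes above that WT limit were. These shares carry no test, because neighbors of one gene and members of one family are not independent.

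**Figure D5:**
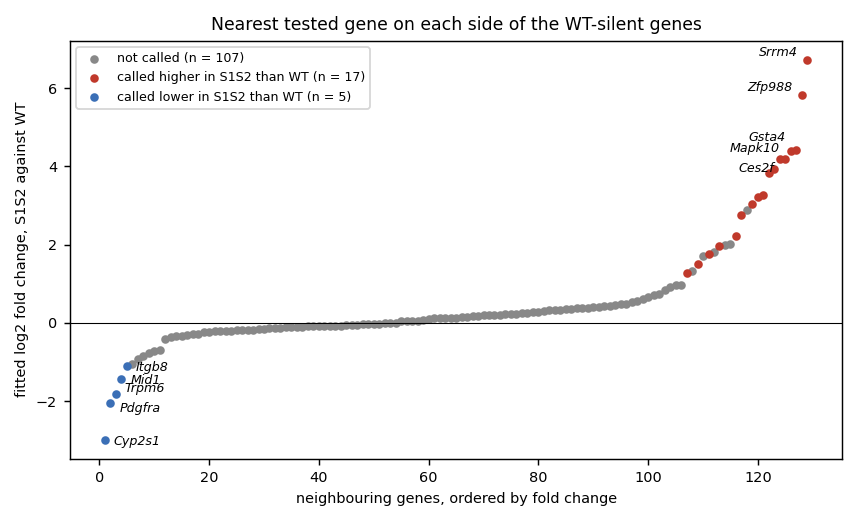
Fitted log2 fold change of S1S2 against WT (y axis) for the 129 neighboring genes, ordered by its value (x axis) and colored by call. The 17 genes called higher lie toward the right end of the curve and the 5 called lower toward the left end, with uncalled genes among them, and the middle lies close to 0.

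Some of the neighbors that rose belong to the same family as the gene beside them. Gsta4, a glutathione S-transferase 21307 bases from Gsta1, was at 11.3, 10.1 and 12.8 CPM in WT and 237, 241 and 234 CPM in S1S2, a rise of 4.41 on the log2 scale (SE 0.09, adjusted p = 2.59e-18). In G9Gl it was lower than in WT, at 3.83, 4.12 and 4.28 CPM. Ces2f, 1671 bases from Ces2g, rose from a mean of 0.0110 CPM in WT to 0.275 in S1S2 and 1.71 in G9Gl. Its S1S2 libraries were uneven, at 0.0910, 0.217 and 0.516 CPM, the lowest of them under the floor of 3 counts. Being silent in WT, Ces2f could pass the filter only through a mutant. Cxcl10, 10655 bases from Cxcl11, was at 9.50 ± 0.852 CPM in WT and rose to 132 ± 3.65 in S1S2 (adjusted p = 3.25e-17, log2 fold change 3.82), and was at 36.7 ± 0.793 in G9Gl. The mean of Ces2f was thus larger in G9Gl than in S1S2, as for Ces2e and Ces2g, and that of Cxcl10 smaller, as for Cxcl11. Cxcl10, Gbp9, Hspa1l and Bicc1 are named here for their place beside a gene of the set, after their values were seen. Hspa1l, 547 bases from Hspa1a on the opposite strand, had 0.728, 0.507 and 0.422 CPM in S1S2 and no count in G9Gl. Bicc1, an RNA-binding protein gene overlapped by the antisense transcript 4930533K18Rik, was at 2.24 ± 0.372 CPM in S1S2, 0.336 ± 0.0826 in WT and 0 in G9Gl, where the antisense transcript had no count either.

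Other rises were next to genes of another kind. Srrm4, a splicing factor of neurons 16411 bases from Hspb8, had no count in WT or G9Gl and 0.364, 0.471 and 0.563 CPM in S1S2, the group through which it passed the filter. Zfp988, next to Gm13147 on chromosome 4, was at 2.37, 1.78 and 2.06 CPM in S1S2 and at most 0.0663 CPM in WT, values that meet the rule. Mapk10, a neuronal stress kinase near 5430427N15Rik, averaged 0.325 CPM in S1S2, 0.286 in G9Gl and 0.0104 in WT. The falls were in genes that WT cells express. Pdgfra, 734612 bases from Kdr, fell from 14.7 ± 1.40 to 3.52 ± 0.249 CPM, Mid1 beside Gm21887 from 16.6 ± 0.844 to 6.002 ± 0.812, Itgb8 from 17.8 ± 0.588 to 8.20 ± 1.31, Trpm6 beside Rorb from 2.86 ± 1.00 to 0.797 ± 0.164 and Cyp2s1 from 0.484 ± 0.0989 to 0.0590 ± 0.0731 CPM.

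Wider lists of genes of the same kinds, counted without the 69, give the setting. Of 51 tested interferon-stimulated genes outside the families left out, 26 (51.0%) were called higher in S1S2 than in WT and none lower, where 4.66% of all genes tested were higher and 4.34% lower. Their median log2 fold change was 1.67, beside -0.0032 over all genes tested. In G9Gl, 48 of the 51 (94.1%) were higher than in WT and none lower, against 6.77% and 3.4% of all genes. Rsad2 was at 3.797 ± 0.259 CPM in WT, 65.4 ± 3.00 in S1S2 and 13.4 ± 2.39 in G9Gl, whereas Trim30a was at 0.142 ± 0.0848, 1.94 ± 0.329 and 85.9 ± 12.4. Of 17 tested germline and meiosis genes, 6 (35.3%) were higher and none lower in S1S2, with a median of 0.63. They were Spo11, Tdrkh, Tex15, Tex19.1, Zcwpw1 and Hspa1l, and Tex15, at 0.671 ± 0.188 CPM, had no count in WT. In G9Gl 1 of the 17 was higher than in WT and 1 lower. The other lists had calls in both directions in S1S2. Higher and lower calls numbered 2 and 3 of 16 (12.5% and 18.8%) for neuronal adhesion, synapse and channel genes, 4 and 4 of 24 (16.7% each) for immune and haematopoietic genes, and 2 and 2 of 16 (12.5% each) for peptidase, transport and secreted epithelial genes. In G9Gl, 10 (62.5%), 11 (45.8%) and 9 (56.2%) of these lists were higher than in WT, and 0, 1 and 2 lower. Among 25 writers and readers of H3K9 methylation, Atf7ip was higher in S1S2, at 222 ± 0.701 against 111 ± 3.33 CPM in WT. Suv39h1, a gene disrupted in S1S2, was lower. In G9Gl 0 were higher and 2 lower, and the genes disrupted there, Ehmt1 and Ehmt2, had fallen to 49.8 and 53.8 CPM. Listed genes silent in WT could pass the filter only through a mutant. Without those at 5 or fewer counts in every WT library, a choice made after seeing the data, higher calls in S1S2 numbered 23 of 42 (54.8%) in the interferon list and 2 of 12 (16.7%) in the germline list, against 3.79% of tested genes above that limit. In the neuronal, immune and peptidase lists they numbered 2 of 12, 4 of 22 and 1 of 14. Higher calls in G9Gl were then 39 of 42 (92.9%) for interferon, 0 of 12 for germline, 6 of 12 for neuronal, 9 of 22 (40.9%) for immune and 7 of 14 for peptidase genes, against 4.97% of tested genes. In the interferon list DESeq2 called 0 genes lower and 0 were lower at an unadjusted edgeR p under 0.05, and in the germline list 0 and 2. For the edgeR counts of 0 in G9Gl, DESeq2 also called 0, and at an unadjusted edgeR p under 0.05 there were 0 interferon and 3 neuronal genes lower, 4 H3K9 genes higher and 1 germline gene not silent in WT higher. The genes named from these lists were picked after their values were seen.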

How the data were processed

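RNA sequencing libraries of 3 cultures each of WT, S1S2 and G9Gl MEFs were analysed. The methods state that the authors used cutadapt for trimming paired reads, STAR 2.5.2b for alignment to the GRCm38 build and TEtranscripts for counting. For expression by H3K9 methylation state, the methods name count matrices from snakePipes instead. They do not tie the counts used here to either route. The deposited values are raw counts per Ensembl gene, whole numbers without normalization, and repeat elements were not analysed here. Multiply aligned reads may be shared among near-identical genes, which makes the counts of such genes uncertain. The use of strand in counting and the annotation release were not given in the sources used here.

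Genes were matched by identifier to GENCODE M21 for symbols, positions and transcripts (47310 of 47937 matched), and to RefSeq promoters of GRCm38.p6 by symbol or synonym. CPM was computed from column totals for the rule, as mean ± SD of 3 libraries. Ratios against a group with any count are given with exact 95% counting intervals, and a group at 0 was set to a floor of 3 counts over the group. Fits used R 4.3.3 with the quasi-likelihood test of edgeR 4.0.16 on all 9 libraries together, TMM normalization and filterByExpr, after a test on simulated data. Calls needed a Benjamini-Hochberg adjusted p no higher than 0.01 over 15540 genes and a change of 2-fold or more, and every adjusted p in the text is from edgeR. Fitted fold changes of genes at 0 in a group depend on the prior count and are not bounds. SE values come from the spread of log2 CPM with a prior count of 2. Alternatives were DESeq2 1.42.0, its size factors, no filter, the replicate number as a block, other thresholds, and leaving out each library in turn.

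The set, its gene lists, roles, markers and motifs were chosen with earlier results of these data known. Genes named by rule were the 12 with the highest S1S2 level per kb, members of the 6 gene lists, the 6 with the highest G9Gl level, the 5 most variable, those at the thresholds, and the 5 largest rises and falls among called neighbors. Other genes were named within role groups after their values were seen. Replicate pairs had chi-square values of 2.57 to 23.5 per degree of freedom, above counting noise, so no library was merged with another. The values of 1 gene of the set are not reported here, though it is included in the counts.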

Additional observations from a re-analysis of the deposited data

Results flagged for a closer look

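The genes were chosen for being on in S1S2, and 7 of the 69 (10.1%) were called higher in G9Gl than in S1S2 by the edgeR test of this difference, near the 7.97% of all genes tested. In each of the 7, all 3 G9Gl libraries exceeded all 3 S1S2 libraries. The log2 fold change of G9Gl against S1S2 was 2.90 for Gbp4, 2.86 for Rhox5, 1.68 for Gng11, 1.67 for Sp100, 1.49 for Foxn1, 1.39 for Ces2g and 1.32 for Ces2e. The causes of these differences were not tested, and each genotype is represented by 1 clone.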

How the results depend on the processing

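The number of genes in the set depends on its limits. It was 33 at an S1S2 minimum of 1 CPM, 8 with 0 counts required in every WT library and 129 with up to 10 counts allowed per WT library, while scaling CPM by TMM factors left 69 and leaving out a WT or S1S2 library gave 76 to 82. Genes on in G9Gl numbered 11, or 19 with more than 5 counts per library as the limit, and 11 to 13 without a G9Gl library. Genes higher in G9Gl than in WT numbered 17 to 20 over DESeq2, its size factors, no filter, the block and leaving out a library. Genes lower in G9Gl than in S1S2 numbered 48 to 54 and genes higher 7 under each of these. Among neighbors, 51 were higher and 25 lower at an adjusted p of up to 0.05 without a fold limit, which is 39.5% and 19.4% against 25.3% and 23.6% of all genes tested. With 2 neighbors on each side, 28 were higher and 10 lower of 257 genes, or 10.9% and 3.89%. Without neighbors silent in WT, 11 were higher, and without the 1 that met the rule, 16, both chosen after seeing the data. Leaving out a library gave 16 to 19 higher and 3 to 6 lower, with 3 without S1S2 replicate 1. Without listed genes silent in WT, also chosen after seeing the data, 2 germline genes were higher in place of 6 and 1 peptidase, transport and secreted epithelial gene in place of 2. In the lists, germline genes lower were 0 to 1 (1 without S1S2 replicate 1) and H3K9 writers and readers higher 0 to 1 (0 without WT replicate 3).

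Over 26 named genes and 156 alternative values for the contrasts with G9Gl, none reversed, 148 kept their side of the threshold, 3 lost the call and 5 gained it. DESeq2 no longer called A630095E13Rik in either contrast or Sp140 between the mutants, and Gm26870 became lower in G9Gl than in WT under DESeq2, without the filter and with the block. Without the filter, Dpep1 was also called lower and Trav4-4-dv10 higher in G9Gl than in WT. The replicate numbers gave no pairing, since the deviations of same-numbered libraries correlated between -0.069 and 0.124. With the replicate block, calls were 18 higher in G9Gl than in WT, and 7 higher and 53 lower than in S1S2, with 18 and 5 neighbors. The causes of these changes were not tested. All WT values and many G9Gl values of the set rest on 5 or fewer counts per library, so their ratios are imprecise.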
